A study of Homo sapiens with 4 samples.

Results

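The glycolysis and hypoxia-induced genes are 41 genes chosen by name: the enzymes that split glucose to lactate, the carriers that move glucose and lactate across the cell membrane, the subunits of the hypoxia-inducible factors and genes known to be induced by them. Of these, 39 were measured among 19583 genes in all, by 86 probe sets, each of which names 1 gene; SLC16A1 and SLC16A3, the lactate carriers of the list, were not analysed here. RNA was measured on Affymetrix arrays in LNCap (LNCaP), an androgen-responsive human prostate cancer cell line. There were 2 arrays of cells that carry the LNCap Lentivirus ERG, which brings the ETS transcription factor ERG with red fluorescent protein, and 2 of cells that carry the LNCap Lentivirus Vector with the fluorescent protein alone. All cells grew in the same regular culture medium and were seeded overnight before RNA was taken, and no oxygen level is given. The sources used here do not say whether both arrays of a label were made from independent cultures or infections, so each p-value rests on the spread among these arrays alone, and that spread may be technical.

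Glycolysis turns glucose into pyruvate in the cytosol, and lactate dehydrogenase can then turn pyruvate into lactate instead of leaving it for the mitochondria. HIF1A and EPAS1 are the oxygen-labile subunits of the hypoxia-inducible factors, which pair with ARNT and bind short sites in the DNA near their targets. In oxygen, the prolyl hydroxylases EGLN1 and EGLN3 mark the labile subunits for degradation through VHL, so that the protein can change while the mRNA does not. Many glycolytic enzymes are targets of these factors, as are the prolyl hydroxylases themselves. Normal prostate epithelium is known for secreting citrate, and prostate cancer cells for changing this use of carbon.

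Most members had slightly higher RNA levels in the arrays labelled ERG. Of the 39 members, 33 had a log2 fold change (ERG minus Vector) above 0 and 6 below, with a median of 0.13 and a range of -0.11 to 0.76, while the median over all genes was 0.01. In 29 members, 74.4%, both ERG arrays lay above both Vector arrays, against 21.7% of all genes, and in 2 both lay below, against 19.1% of all genes. The largest differences were in PFKFB4, PKM, NDRG1, ADM and PFKP, and the mRNAs of HIF1A, EPAS1 and ARNT overlapped between the groups. The list was chosen with results of these data known, and its members share the same 4 arrays, so these shares are a description without a test.

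No single member passed limma's test after Benjamini-Hochberg adjustment over all genes (at an adjusted p under 0.05, 0 of 39 were called higher and 0 lower, where 0.00511% of all genes passed as higher and 0.00511% as lower). At an unadjusted p under 0.05, 13 of 39 members were higher, 33.3% against 5.61% of all genes, and 0 were lower against 4.11%. This count was 6 without the first ERG array (against 3.28% of all genes in that fit), 7 without the second (5.91%), 5 without the first Vector array (5.42%) and 6 without the second (4.35%). By the methods' t-test, 11 members were higher, against 4.38% of all genes, and 1, SLC2A3, was lower, against 3.76%, at the same unadjusted level, with none after adjustment. With moderation of the variance made trended and robust, PFKFB4 (adjusted p = 0.0020) and NDRG1 (adjusted p = 0.0073) passed, among 0.245% of all genes called higher in that fit.

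**Figure D1:**
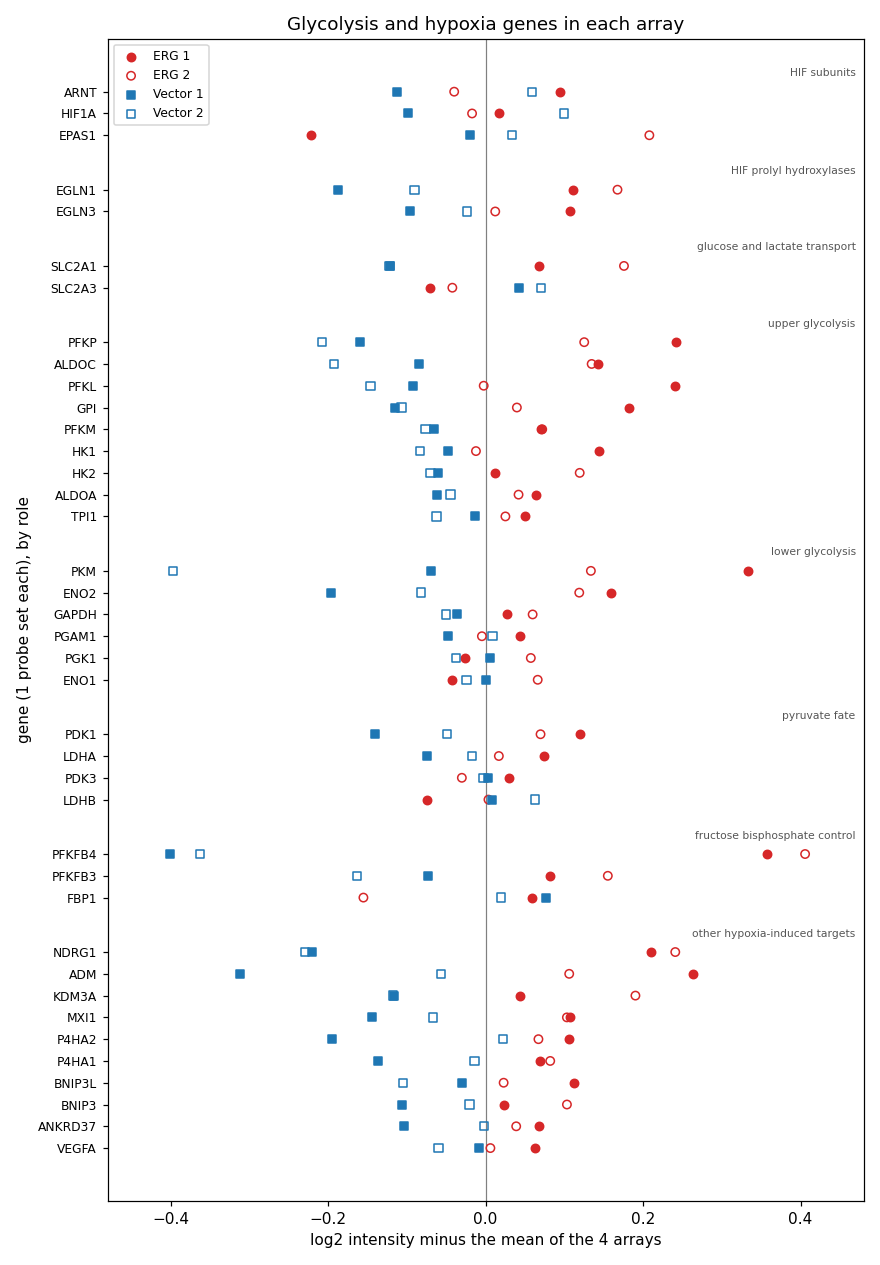
Log2 intensity of the 39 members in each array (x axis, as the difference from the gene's mean over the 4 arrays; y axis, genes by role and within a role by fold change). Red circles are the ERG arrays and blue squares the Vector arrays; red lies to the right of blue in 29 members, most widely in PFKFB4, and the symbols of the HIF subunits are mixed.

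As a median over the 39 members, the difference from each gene's own mean was 0.07 on the log2 scale in the first ERG array, 0.07 in the second, -0.08 in the first Vector array and -0.06 in the second. The arrays of a group were thus close to each other and the groups apart. For all genes the same medians lay between -0.01 and 0.02. The prostate luminal markers measured, among them KLK3 and FOLH1, were bright in every array (8 of 8, at log2 intensities of 9.84 to 13.0). Of these 8, 3 were lower in both ERG arrays (against 19.1% of all genes) and 1 was higher (against 21.7%). The lower ones were KLK3, by a log2 fold change of -0.13, KLK2 by -0.29 (unadjusted p = 0.020, adjusted p = 0.43 from limma) and TMPRSS2 by -0.20. The higher one was FOLH1 (0.08). The summed intensity of the 8 was 27923 and 28008 in the ERG arrays and 28477 and 29064 in the Vector arrays. Of 16 measured markers of stromal, blood, endothelial and basal cells, 14 lay in every array at or below a log2 intensity of 5.03, and the others were COL1A1 and VWF. Both of these were higher in both ERG arrays, like most members, COL1A1 at 8.79 and 8.69 against 8.39 and 8.33 (log2 fold change 0.38, unadjusted p = 0.0053, adjusted p = 0.35) and VWF with separate groups at a lower level (0.30, unadjusted p = 0.041, adjusted p = 0.49). Of all 16, 4 were higher without overlap (against 21.7% of all genes), 1 lower (against 19.1%) and 11 overlapping. The summed intensity of the 16 was 679 and 640 against 546 and 542, and COL1A1, the brightest of them, weighs most in it. The stromal markers COL1A2, COL3A1, DCN and LUM, the endothelial PECAM1 and CDH5 and the blood marker PTPRC were dim in every array, and the part of these markers in the members' differences was not tested. The limit of 5.03 lies above 90% of the values of 33 genes typical of other organs, and values below it are called dim here. The 4 probe sets of ERG were dim in every array, at 2.65 to 3.58, with log2 fold changes of -0.24 to 0.12, so ERG does not check the labels. It is not known here if the probes match the ERG that the virus brings.

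The promoters below are shown because they set members with a higher level in the ERG arrays beside abundant enzymes that overlapped between the groups. Each is the 250 bases before the gene's start, 5′ to 3′, from RefSeq on GRCh38.p14. Capitals mark ACGTG or GCGTG on either strand, the core that the hypoxia-inducible factors bind, and CCGGAA on either strand, a core bound by ETS factors such as ERG; a palindromic CACGTG counts as 2 matches. The first 5 are of members at an unadjusted p under 0.05, the last 2 of members whose groups overlapped at the probe set used. Each gene has 1 listed start. For PGK1, other probe sets had separate groups at 0.11 and 0.17, so its place among the overlapping genes rests on the probe set used.

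PFKFB4, chr3:48556804-48557053, minus strand: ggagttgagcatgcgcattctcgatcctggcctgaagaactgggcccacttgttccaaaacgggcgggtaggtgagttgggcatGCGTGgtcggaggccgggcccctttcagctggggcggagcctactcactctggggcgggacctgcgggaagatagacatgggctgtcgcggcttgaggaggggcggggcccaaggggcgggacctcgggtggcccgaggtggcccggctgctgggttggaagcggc
EGLN1, chr1:231422288-231422537, minus strand: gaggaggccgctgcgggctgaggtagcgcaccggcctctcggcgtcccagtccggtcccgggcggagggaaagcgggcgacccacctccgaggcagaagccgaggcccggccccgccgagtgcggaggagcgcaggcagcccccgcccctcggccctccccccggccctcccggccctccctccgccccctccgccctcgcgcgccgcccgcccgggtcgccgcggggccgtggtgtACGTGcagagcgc
ALDOC, chr17:28576896-28577145, minus strand: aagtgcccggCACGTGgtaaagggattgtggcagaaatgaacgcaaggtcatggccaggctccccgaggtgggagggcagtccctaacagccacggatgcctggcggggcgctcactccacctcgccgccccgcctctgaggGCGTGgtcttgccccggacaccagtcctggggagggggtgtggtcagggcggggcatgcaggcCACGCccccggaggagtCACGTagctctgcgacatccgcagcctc
PKM, chr15:72231191-72231440, minus strand: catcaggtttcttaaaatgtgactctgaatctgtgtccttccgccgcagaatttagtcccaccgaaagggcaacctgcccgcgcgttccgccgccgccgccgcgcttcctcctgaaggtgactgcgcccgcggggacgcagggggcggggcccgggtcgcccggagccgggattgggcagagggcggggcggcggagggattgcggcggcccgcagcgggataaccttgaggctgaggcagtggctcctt
ENO2, chr12:6914330-6914579, plus strand: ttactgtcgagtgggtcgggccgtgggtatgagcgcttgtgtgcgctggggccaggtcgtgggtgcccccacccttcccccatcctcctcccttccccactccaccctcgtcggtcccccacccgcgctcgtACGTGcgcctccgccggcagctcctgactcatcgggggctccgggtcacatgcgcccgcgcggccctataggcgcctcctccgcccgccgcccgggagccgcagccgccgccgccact
ENO1, chr1:8878687-8878936, minus strand: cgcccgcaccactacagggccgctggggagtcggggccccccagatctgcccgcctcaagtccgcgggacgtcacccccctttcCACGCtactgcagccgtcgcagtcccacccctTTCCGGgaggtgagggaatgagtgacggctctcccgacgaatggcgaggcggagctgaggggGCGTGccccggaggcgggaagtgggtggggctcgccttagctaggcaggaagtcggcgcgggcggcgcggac
PGK1, chrX:78103998-78104247, plus strand: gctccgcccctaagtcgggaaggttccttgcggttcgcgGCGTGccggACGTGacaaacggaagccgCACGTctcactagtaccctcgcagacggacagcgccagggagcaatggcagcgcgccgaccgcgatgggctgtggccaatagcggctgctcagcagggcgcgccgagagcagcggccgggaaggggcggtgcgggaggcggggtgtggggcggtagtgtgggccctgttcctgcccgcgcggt

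The hypoxia core was present in both kinds of promoter. PFKFB4, EGLN1 and ENO2 held 1 match each, ALDOC held 5 and PKM none, while ENO1 held 2 and PGK1 held 3. CCGGAA, the only ETS core searched for, was found in 1 of these 7 windows, that of ENO1. Other sequences that ETS factors can bind were not searched for and are not marked. The 7 were picked by hand with the results known. Of members at an unadjusted p under 0.05, GPI, SLC2A1 and ADM also have a single window but are not shown. GPI held 1 match of each core, SLC2A1 neither, and ADM 1 match of the hypoxia core alone. Of the 61 such windows of 35 members, 36 held the hypoxia core, 59.0% against 43.2% of the 35116 windows of all genes. Among members with both ERG arrays above both Vector arrays the share was 58.8% of 51 windows, and among the others 60.0% of 10. Among members at an unadjusted p under 0.05 it was 73.7% of 19 windows. The ETS core was in 21.3% of the members' windows and 14.5% of all windows. It was in 12 of 51 windows (23.5%) of members with both ERG arrays above and in 1 of 10 (10.0%) of the other members. Among members at an unadjusted p under 0.05 it was in 4 of 19 (21.1%). Several windows can belong to 1 gene and can overlap, as some of PFKM do, so a match can be counted repeatedly. Base composition was not adjusted for, and a match of letters is a description and not a bound site.

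The HIF subunits had no difference beyond the spread between arrays. HIF1A, the labile alpha subunit, read log2 intensities of 10.88 and 10.84 in the ERG arrays and 10.76 and 10.96 in the Vector arrays. The ERG arrays lay between the Vector arrays, and the difference was -6.7e-04 on the log2 scale (standard error 0.10, unadjusted p = 0.995 from limma). EPAS1, the second alpha subunit, was dim, at 3.90 and 4.33 against 4.10 and 4.16, with the ERG arrays on either side of both Vector arrays, and its log2 fold change was -0.01 (standard error 0.15). ARNT, their shared partner, read 7.14 and 7.01 against 6.94 and 7.11, which also overlap (0.05, standard error 0.10). The signs of all 3 turned when single arrays were left out. A second ARNT probe set as bright as the first had 0.12 with separate groups, and another, near the dim limit, had 0.47 with a standard error of 0.24 and overlapping groups. The ARNT probe sets that were dim in every array had -0.22 and -0.10 with both ERG arrays lower, and -0.12 and 0.07 with overlapping groups.

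The prolyl hydroxylases that oppose these subunits, and are themselves induced in hypoxia, were both higher in the ERG arrays. EGLN1, the main oxygen sensor of the family, read 9.96 and 10.02 in the ERG arrays and 9.66 and 9.76 in the Vector arrays. The groups were separate, and the log2 fold change was 0.28 (standard error 0.08, unadjusted p = 0.018, adjusted p = 0.42). Of its other probe sets, 1 had 0.30 with separate groups, and those that were dim in every array had 0.45 with separate groups and -0.05 with overlapping groups. EGLN3 read 7.23 and 7.13 against 7.02 and 7.10, separate by a narrow margin (0.12, standard error 0.08, adjusted p = 0.69).

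Of the glucose carriers, SLC2A1 (GLUT1), the carrier for basal uptake, read 6.86 and 6.97 in the ERG arrays and 6.67 in both Vector arrays. Both ERG arrays were above the Vector arrays, and they differed by 0.24 on the log2 scale (standard error 0.08, unadjusted p = 0.029, adjusted p = 0.45). SLC2A3 (GLUT3), a high-affinity carrier of neurons, was dim in every array, at 3.48 and 3.51 against 3.59 and 3.62 (log2 fold change -0.11, standard error 0.08, adjusted p = 0.68). Its other 2 probe sets, dim as well, had 0.11 and -0.34, so no direction can be given for it.

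All 9 members of upper glycolysis, from hexokinase to triosephosphate isomerase, lay higher in both ERG arrays than in both Vector arrays, against 21.7% of all genes. Their median log2 fold change was 0.14, against 0.01 over all genes. PFKP, the platelet isoform of phosphofructokinase, which commits sugar to glycolysis, read 10.20 and 10.09 against 9.80 and 9.75. Its groups were the most widely separate of the 9, by a log2 fold change of 0.37 or 1.29-fold (standard error 0.08, unadjusted p = 0.0064, adjusted p = 0.36). The second PFKP probe set, dim in every array, had 0.05 with overlapping groups, and the mean of its probe sets gave 0.21. ALDOC, the brain-type aldolase, read 10.51 and 10.50 against 10.28 and 10.17 (0.28, standard error 0.08, unadjusted p = 0.018). GPI, which turns glucose-6-phosphate into fructose-6-phosphate, read 11.93 and 11.79 against 11.63 and 11.64 (0.22, standard error 0.09, unadjusted p = 0.048). ALDOC and GPI thus had separate groups without passing the adjusted threshold (adjusted p = 0.42 and 0.51). The other phosphofructokinase isoforms, PFKL and PFKM, had log2 fold changes of 0.24 and 0.14, and the hexokinases HK1 and HK2, which trap glucose in the cell, had 0.13 each. For PFKL, leaving out any 1 array gave 0.12 to 0.36, and its other probe set had 0.08 with overlapping groups. A second, dimmer HK2 probe set had -0.13 with overlapping groups. ALDOA, the ubiquitous aldolase, had 0.11, and TPI1 had the smallest difference of the 9, 12.74 and 12.72 against 12.68 and 12.63 (0.08, standard error 0.08).

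In lower glycolysis, which makes the ATP and the pyruvate, the 6 members were less uniform. PKM, the pyruvate kinase of most tissues, read 10.30 and 10.10 in the ERG arrays and 9.90 and 9.57 in the Vector arrays. Its groups were separate but each was wide, with a log2 fold change of 0.47 or 1.38-fold (standard error 0.14, unadjusted p = 0.019, adjusted p = 0.42). This ran from 0.30 without the second Vector array to 0.63 without the first. ENO2, the neuronal enolase, read 8.21 and 8.17 against 7.85 and 7.97, with separate groups (0.28, standard error 0.08, unadjusted p = 0.019, adjusted p = 0.42). ENO1, the ubiquitous enolase, read 12.63 and 12.74 against 12.67 and 12.65, where the ERG arrays lay on either side of the Vector arrays (0.02, standard error 0.08, adjusted p = 0.96). GAPDH had 0.09 with separate groups at each of its 3 probe sets. PGK1 and PGAM1 overlapped, with 0.03 and 0.04, though 2 other PGK1 probe sets had separate groups at 0.11 and 0.17.

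**Figure D2:**
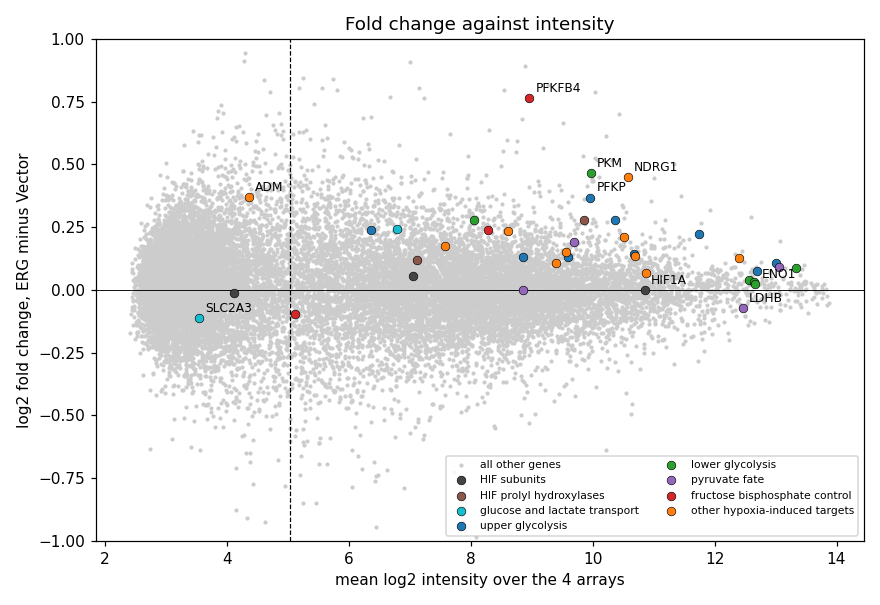
Log2 fold change (y axis, ERG minus Vector) against the mean log2 intensity over the 4 arrays (x axis) for all genes (grey) and for the members, coloured by role. The dashed line is the dim limit of 5.03, and 18 genes lie beyond the y axis. The members right of 12 lie between -0.07 and 0.13, where the grey cloud is narrow as well.

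The brightest members had small differences. The 9 members with a mean log2 intensity over 12 (ALDOA, TPI1, GAPDH, PGK1, PGAM1, ENO1, LDHA, LDHB and BNIP3) had log2 fold changes of -0.07 to 0.13. Over all 240 genes that bright, the SD of the log2 fold change was 0.06 and 0.417% were beyond 0.2 in either direction, against an SD of 0.14 and 9.84% of the 4675 genes between 8 and 12. Of the 21 members between 8 and 12, 52.4% were beyond 0.2. The part that brightness plays in the small differences of these members was not tested.

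At the branch after pyruvate, no member reached an unadjusted p under 0.05. LDHA, the lactate dehydrogenase subunit that favours lactate, had a log2 fold change of 0.09 with separate groups. LDHB, the subunit that favours pyruvate, read 12.39 and 12.46 in the ERG arrays against 12.47 and 12.52. Both ERG arrays were below both Vector arrays, by less than the standard error (-0.07, standard error 0.08, adjusted p = 0.82), and its second probe set was also lower (-0.09). PDK1, a kinase that shuts the mitochondrial entry of pyruvate, read 9.82 and 9.77 against 9.56 and 9.65, with separate groups (0.19, standard error 0.08, unadjusted p = 0.064, adjusted p = 0.54). Its dimmer probe set had 0.33, also with separate groups. PDK3, another such kinase, overlapped at -7.2e-04. A dimmer PDK3 probe set had 0.07 with separate groups, and so did another that was dim in every array. Its remaining probe sets overlapped at 0.03 and 0.01.

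The genes that set the level of fructose bisphosphates held the largest difference of all members. PFKFB4 makes and breaks fructose-2,6-bisphosphate, the activator of phosphofructokinase, and read 9.32 and 9.37 in the ERG arrays against 8.56 and 8.60 in the Vector arrays. The groups were far apart for their spread, with means of 9.34 ± 0.03 and 8.58 ± 0.03 (SD, n = 2 in each group) and a log2 fold change of 0.76 or 1.70-fold (standard error 0.08, unadjusted p = 1.3e-04, adjusted p = 0.12 from limma). It ranked 24 from the highest log2 fold change among all 19583 genes, and leaving out any 1 array gave 0.74 to 0.79. Its second probe set, dim in every array, had 0.28, with separate groups. PFKFB3, the isoform with the strongest kinase activity, read 8.37 and 8.44 against 8.21 and 8.12, with separate groups (0.24, standard error 0.08, unadjusted p = 0.033, adjusted p = 0.47). FBP1, which runs the reverse step in gluconeogenesis, read 5.17 and 4.95 against 5.19 and 5.13 and overlapped near the dim limit (-0.10, standard error 0.10).

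**Figure D3:**
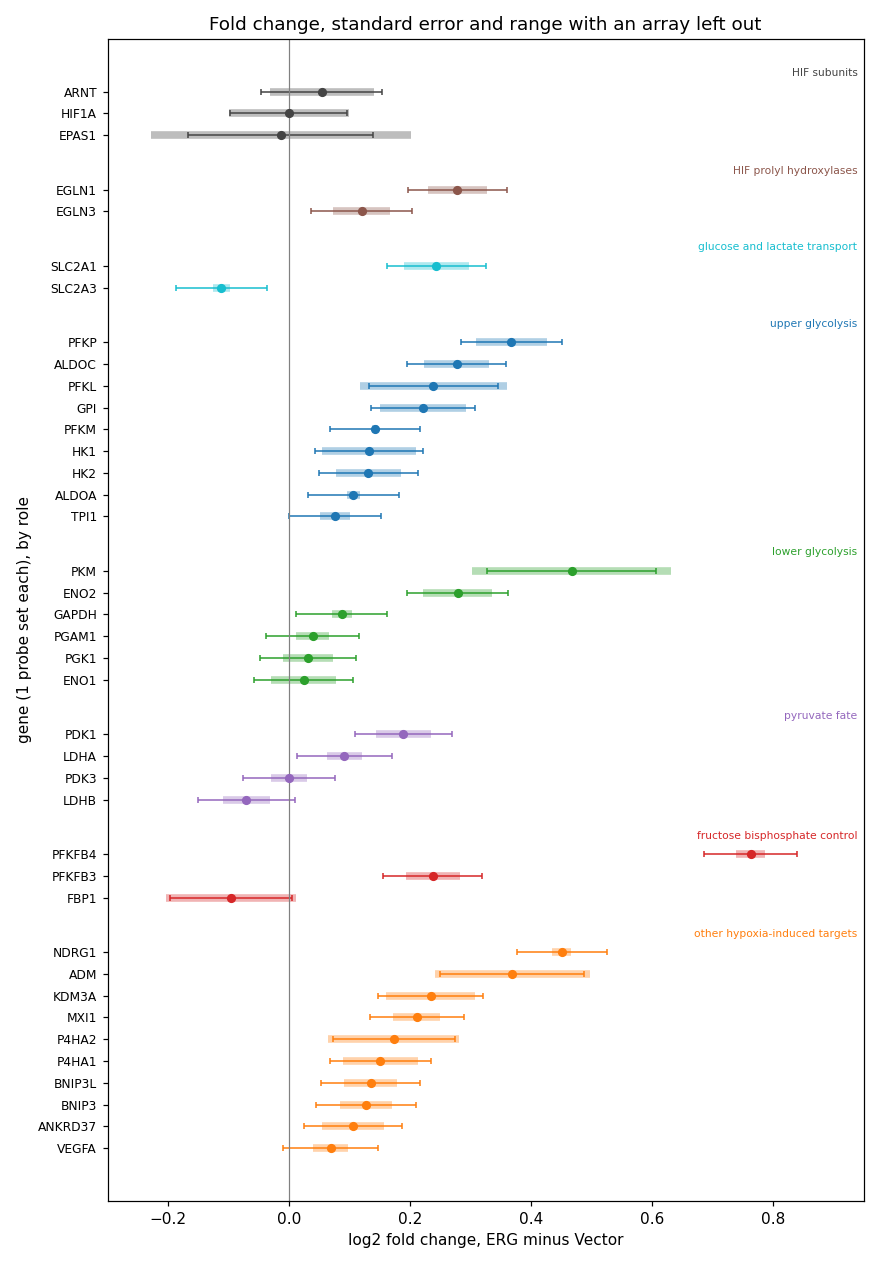
Log2 fold change of each member (x axis, ERG minus Vector; y axis, genes by role). Points are the values from all 4 arrays, thin bars their standard errors from limma and pale bars the range with single arrays left out; 30 members stay above 0 throughout, and PFKFB4 lies farthest right at 0.76.

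All 10 of the other hypoxia-induced targets were higher in both ERG arrays than in both Vector arrays, against 21.7% of all genes. Their median log2 fold change was 0.16, against 0.01 over all genes. NDRG1, a stress-responsive and androgen-responsive gene, read 10.79 and 10.82 against 10.36 and 10.35. The arrays of each group nearly coincided, at a log2 fold change of 0.45 or 1.37-fold (standard error 0.07, unadjusted p = 0.0015, adjusted p = 0.26). ADM, the vasodilator peptide adrenomedullin, was dim in every array, at 4.62 and 4.47 against 4.05 and 4.30 (0.37, standard error 0.12, unadjusted p = 0.025, adjusted p = 0.45), which gives no exact size. KDM3A, a histone H3 lysine demethylase, read 8.66 and 8.80 against 8.50 and 8.49 (0.23, standard error 0.09, unadjusted p = 0.041). Its other probe set, dim in every array, had -0.015 with overlapping groups. MXI1, an antagonist of MYC, read 10.62 in both ERG arrays against 10.37 and 10.45 (0.21, standard error 0.08, unadjusted p = 0.041). Neither KDM3A nor MXI1 passed after adjustment (adjusted p = 0.49 for both).

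The remaining targets had smaller differences, all with separate groups. The mitophagy receptors BNIP3 and BNIP3L had log2 fold changes of 0.13 each, and their second probe sets had 0.15 and 0.13, with separate groups too. P4HA1 and P4HA2, subunits of the collagen prolyl hydroxylase, had 0.15 and 0.17, while 2 dimmer P4HA2 probe sets overlapped at -0.09 and -0.06. ANKRD37 had 0.11. VEGFA, the main angiogenic factor, read 10.94 and 10.88 against 10.87 and 10.81, the smallest of the 10 at 0.07 (standard error 0.08, adjusted p = 0.82), and of its other 3 probe sets 1 had separate groups, at 0.16.

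Across all 86 probe sets of the members, 60 had at least 1 array above the dim limit, and 42 of these were higher in both ERG arrays, 2 lower and 16 overlapping. Of the 24 among them that were not used to represent a gene, 14 were higher, 1 lower and 9 overlapping. Over all 17020 probe sets that name 1 gene and have an array above the limit, 21% were higher in both ERG arrays and 25.6% lower. Probe sets of a gene read the same RNA and are not independent.

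Other genes of these pathways were taken from lists of textbook genes. These lists, too, were chosen with earlier results of these data known and share the same 4 arrays. Their counts are therefore a description without a test. Of 40 measured hypoxia-induced genes outside the member list, 20 were higher in both ERG arrays (against 21.7% of all genes) and 4 lower (against 19.1%), with a median log2 fold change of 0.08. None passed limma's adjusted threshold, and an unadjusted p under 0.05 was reached by 7 as higher (17.5%, against 5.61% of all genes) and 0 as lower (against 4.11%). These were PPFIA4 (0.56), a liprin, TMEM45A (0.44), a transmembrane protein, DPYSL4 (0.36), a dihydropyrimidinase-like protein, PLOD1 (0.33), which hydroxylates collagen lysines, KDM4B (0.29), a histone demethylase, LOXL2 (0.28), a lysyl oxidase that was dim in every array, and BHLHE40 (0.25), a transcriptional repressor. The 4 that were lower in both ERG arrays were TFRC (-0.17), ERO1A (-0.14), DDIT4 (-0.12) and KDM4C (-0.05), named after their values were seen.

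Of 32 measured further isozymes, gluconeogenic enzymes and carriers, 6 were higher in both ERG arrays (18.8%, against 21.7% of all genes) and 7 lower (against 19.1%), and the median log2 fold change was -9.4e-04. None passed after adjustment, and an unadjusted p under 0.05 was reached by 3 as higher (against 5.61% of all genes) and by 1 as lower (against 4.11%). SLC2A12, a glucose carrier known in prostate cells, read 5.59 and 5.54 against 4.84 and 5.03, with separate groups (0.63, standard error 0.10, adjusted p = 0.25). TIGAR, which lowers fructose-2,6-bisphosphate, had 0.24 and SLC16A7, a monocarboxylate carrier, 0.22. PCK2, the mitochondrial enzyme that makes phosphoenolpyruvate, read 10.50 and 10.46 in the ERG arrays and 10.80 and 10.74 in the Vector arrays, with the ERG arrays lower (-0.29, standard error 0.08, adjusted p = 0.38).

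Of 13 further genes of oxygen sensing, 4 were higher in both ERG arrays (30.8%, against 21.7% of all genes) and 3 lower (against 19.1%), with a median log2 fold change of -0.02 and none past the adjusted threshold. VHL, which targets the hydroxylated alpha subunits for degradation, read 7.03 and 6.95 in the ERG arrays and 7.19 and 7.31 in the Vector arrays. Both ERG arrays were lower, and the log2 fold change was -0.26 (standard error 0.09, unadjusted p = 0.028, adjusted p = 0.45). CITED2, which competes with HIF1A for its coactivators, read 7.94 and 8.06 against 7.67 and 7.63, and both ERG arrays were higher (0.35, standard error 0.08, unadjusted p = 0.0080, adjusted p = 0.37).

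**Figure D4:**
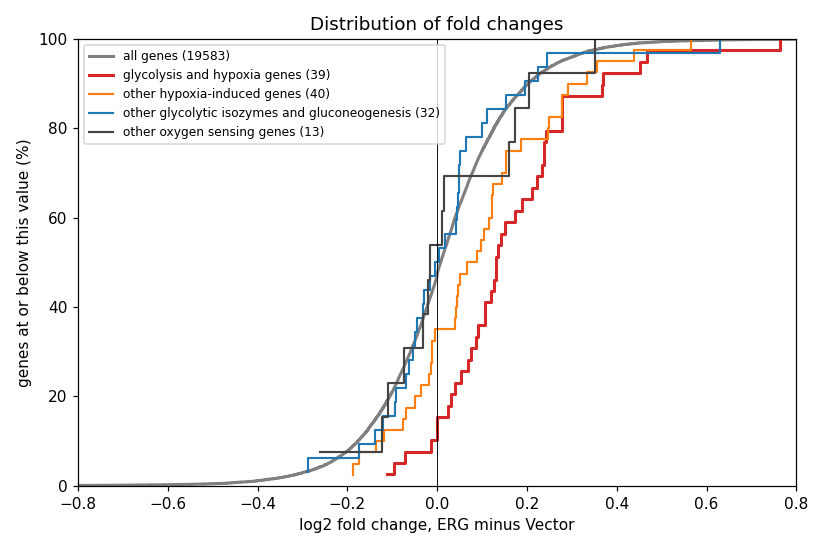
Share of genes (y axis, percent) at or below each log2 fold change (x axis, ERG minus Vector) for all 19583 genes, the 39 members and 3 further lists. The curve of the members lies right of that of all genes, with medians of 0.13 and 0.01, that of the 40 other hypoxia-induced genes lies between, and those of the further glycolytic and oxygen sensing genes follow the curve of all genes near their middle.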

How the data were processed

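RNA of 2 LNCap ERG and 2 LNCap Vector arrays was analysed from the deposited table of 51965 probe set intensities. The authors analysed the scanned arrays with dChip, normalized them with RMAexpress and annotated them with Multiexperiment Viewer; no source used here gives their versions. The deposited intensities were read as linear, since medians were near 14.0 to 14.4, and were taken to log2. Left out were 2 probe sets with a missing value, 838 that name several genes and 11661 that name none in the platform annotation. For each gene the probe set brightest on average was taken (19583 genes). The comparison used limma 3.58.1 (lmFit, then eBayes; 2 residual and 3.23 prior degrees of freedom) in R 4.3.3, with Benjamini-Hochberg adjustment over all genes and a threshold of 0.05. The fit was tested on simulated data with differences larger than that of any member. Its recovery of differences as small as those of the members was not tested. Plots were drawn with matplotlib 3.10.9 in Python 3.11.15.

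The members and gene lists were chosen with earlier results of these data known. All members are named; values in each array are given for the HIF subunits, for members at an unadjusted p under 0.05 and for the highest and lowest log2 fold change of each role. Of the further lists, genes at an unadjusted p under 0.05 are named, and so are the hypoxia-induced genes lower in both ERG arrays. Of the 33 measured genes of other organs, MB and MBP were bright (means of 10.8 and 8.16), so the dim limit is the 90th percentile. Promoter windows were found for 35 of 39 members. Arrays have no read depth, and their number limits the precision. Other settings tried were trended and robust moderation, no dimmer genes, means of probe sets, all probe sets together, plain probe sets, centring on 24 housekeeping genes, quantile normalization again, the methods' t-test, a replicate block and 1 array fewer.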

Additional observations from a re-analysis of the deposited data

How the results depend on the processing

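Over the alternatives, the median log2 fold change of the members stayed above 0, at 0.13 to 0.14 with all 4 arrays and 0.10 to 0.16 with single arrays left out. Members past the adjusted threshold as higher numbered 2 with trended and robust moderation (PFKFB4 and NDRG1), 1 without the dimmer genes (PFKFB4, adjusted p = 0.017) and 0 otherwise, and none passed as lower. The adjusted p of PFKFB4 ran from 0.0020 to 0.69 and that of NDRG1 from 0.0073 to 0.74 over all settings. Of all genes, 48 higher and 41 lower passed with trended and robust moderation, 31 and 23 without the dimmer genes, 6 and 8 with means of probe sets, 2 and 1 with quantile normalization again, 3 and 3 with housekeeping centring and 1 and 2 with plain probe sets. Neither direction had any, 0 and 0, with all probe sets together, the replicate block, the methods' t-test or an array left out (0 to 0); with an array fewer the fit keeps 1 residual degree of freedom and assumes that the lone array varies like the other group. The replicate block left 8 members higher at an unadjusted p under 0.05 (against 5.53% of all genes in that fit). Deviations of same-numbered arrays correlated at r = 0.077 over all genes. This value cannot tell whether same-numbered arrays share a culture or batch, and the labels do not say. Of the 24 members with a plain probe set, 15 had both ERG arrays above both Vector arrays (against 19.8% of the 16380 genes with one) and 7 were higher at an unadjusted p under 0.05 (against 4.77%). The sign of 32 of 39 members held in every setting that gave a value. It turned for ENO1 with means of probe sets (-0.026) and plain probe sets (-0.098), for PDK3 with means (0.037), quantile normalization (4.8e-04) and housekeeping centring (0.0050), and for HIF1A with the last (0.0050). A held sign did not always mean a held size. With means of probe sets, HK2 fell to 0.0029, P4HA2 to 0.0092 and KDM3A to 0.11, while EGLN3 rose to 0.20, ALDOA to 0.18 and PDK1 to 0.26. With single arrays left out, HIF1A ran from -0.10 to 0.098, EPAS1 from -0.23 to 0.20, ARNT from -0.032 to 0.14, PGK1 from -0.0098 to 0.073, ENO1 from -0.030 to 0.078, PDK3 from -0.031 to 0.029 and FBP1 from -0.20 to 0.011. The cause was not tested. Dim genes and 2 arrays per group limit what can be seen.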
